A study of Mus musculus with 14 samples.

Results

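The comparison described here sets normal, unobstructed kidney labelled SMOC2 transgenic against normal wild-type kidney, 6 of the 14 libraries of the series. The members were taken from the sample labels alone: 3 libraries of genotype SMOC2 Transgenic (numbered 1, 3 and 4) and 3 wild-type libraries (numbered 1, 2 and 3), all of untreated kidney. The other 8 libraries, 4 of each label, came from kidney whose ureter had been closed on one side for 7 days (UUO), and they serve here to estimate the spread and to look at the changed genes a second time. Messenger RNA of whole mouse kidney was sequenced, and 17926 of 47729 listed genes had enough counts to be tested. The promoter, species of origin and integration site of the transgene, the strain and the age of the animals, and whether each library came from its own animal are not given in the labels. A treatment text attached to the same samples speaks of male Balb/c mice given folic acid, which is not what their genotype and treatment labels say, and the groups follow the latter.

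SMOC2 is a secreted calcium-binding protein of the SPARC family, whose members bind to the extracellular matrix and to growth factor receptors without being structural fibres themselves. In kidney it is known as a product of interstitial cells that increases in fibrosis, where fibroblasts become contractile, matrix-producing myofibroblasts. The normal kidney is mostly tubule: the proximal tubule reabsorbs solutes, the loop of Henle and distal tubule fine-tune salt and divalent ions, and fibroblasts are few.

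Levels are given as CPM, the usual depth-scaled count as edgeR computes it from the scaled library size, and differences as log2 of the SMOC2 label over wild type. A gene is called changed at an adjusted p under 0.05 over all genes tested, by edgeR's quasi-likelihood test (Benjamini-Hochberg). Total counts ran from 19483994 to 23994849 in the SMOC2-labelled libraries and from 22104417 to 30033405 in the wild-type ones. In the 6 libraries Xist, which is made from an inactive X chromosome, stood at 964 to 1116 CPM, whereas 0 to 2 counts fell on Y-linked genes; the text on male mice does not match these values. Over 15810 genes, the root mean square log2 distance was 0.471 to 0.499 between SMOC2-labelled libraries, 0.465 to 0.531 between wild-type libraries and 0.490 to 0.578 across labels. On the first principal component of the 6 libraries, with 29.8% of the spread, the wild-type libraries lay at 21.7, 1.68 and 34.9 and the SMOC2-labelled ones at -5.05, -27.8 and -25.4. The labels name no batch.

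Smoc2 itself was measured first, as the gene that the label names. The promoter and species of the transgene are not given, so counts of mouse Smoc2 cannot decide whether the labels are right. The gene also overlaps 4930474M22Rik on the opposite strand, and the strand setting of the counting is not known. Smoc2 was at 12.6, 19.7 and 43.3 CPM in wild-type libraries 1, 2 and 3. In SMOC2-labelled libraries 1, 3 and 4 it was at 27.8, 26.9 and 10.6 CPM. The groups overlapped: the highest value was in a wild-type library and the lowest in an SMOC2-labelled one. The difference was -0.22 on the log2 scale (95% interval -1.05 to 0.61, edgeR adjusted p = 0.850). It was 0.43 without wild-type library 3 and 0.11 without SMOC2-labelled library 4, so its sign rested on single libraries. After UUO, Smoc2 was at 131 to 158 CPM in wild type and lower, at 83.9 to 124 CPM, under the SMOC2 label, without overlap (log2 -0.61, 95% interval -1.29 to 0.07, edgeR adjusted p = 0.389). Counts of mouse Smoc2 thus did not separate the labels in normal kidney and lay opposite to the label in value after UUO, and each direction below is one between the libraries labelled SMOC2 and those labelled wild type.

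Few genes separated the labels. Of 17926 genes, 5 changed (0.0279%): 4 were higher in the SMOC2-labelled libraries (0.0223% of genes tested) and 1 was lower (0.00558%). In order of their p they were Gm10039, Gm11814, Spr-ps1, Gm5909 and Catspere2. The first 4 are annotated as pseudogenes, copies of protein-coding genes that are not thought to encode the protein, and 601 of the genes tested carry such an annotation. Among those 601, 4 changed (0.666%), against 1 of 15187 protein-coding genes (0.00658%). This make-up depends on the test: DESeq2 called 172 of the 17926 genes (0.96%), among them 16 of the 601 pseudogenes. That is still a larger share of the pseudogenes than of all genes. The background of weaker differences was wide: 2299 genes (12.8%) had an unadjusted p under 0.05, 1093 of them higher (6.10%) and 1206 lower (6.73%). In 3020 genes (16.8%) the 3 libraries of one label did not overlap the 3 of the other, with 1584 higher (8.84%) and 1436 lower (8.01%). The plot of difference against level shows where the 5 genes lie among the rest.

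**Figure D1:**
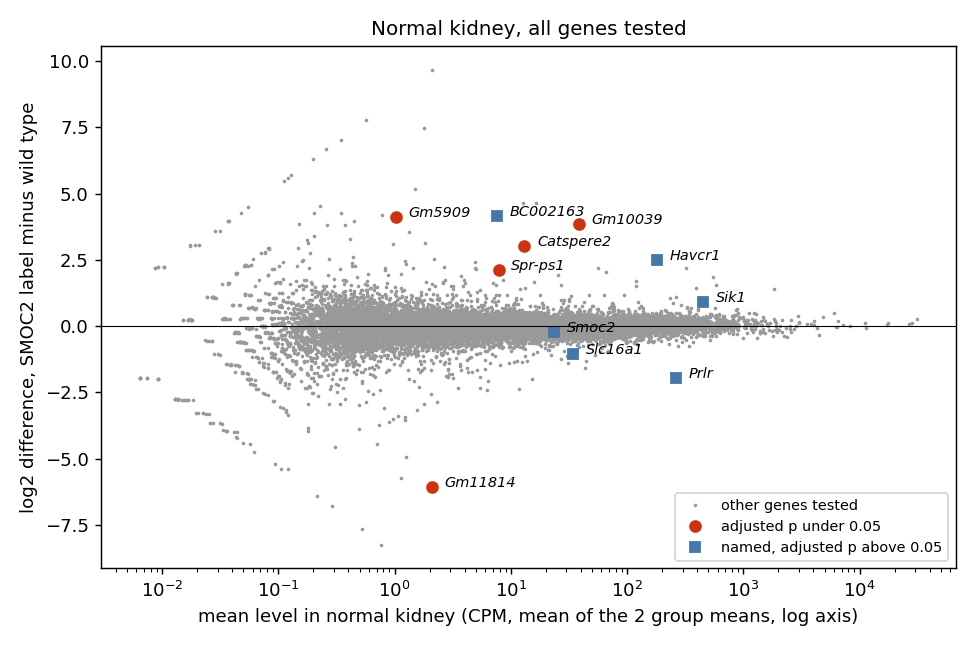
Each point is a gene tested in normal kidney; the x axis is its mean level in CPM on a log scale and the y axis the log2 difference of the SMOC2 label from wild type. The 5 changed genes are red, with Gm10039 at 3.86 and Gm11814 at -6.06; blue squares mark named genes that did not pass the threshold, among them Smoc2 at -0.22.

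Gm10039 (ENSMUSG00000091478) is a processed pseudogene at chr11:100361716-100362126 on mm10, minus strand. Its level was 4.54, 5.03 and 5.38 CPM in wild-type libraries 1 to 3 and 79.8, 88 and 49.3 CPM in SMOC2-labelled libraries 1, 3 and 4. Each SMOC2-labelled library lay far above each wild-type library, and library 4 was the lowest of its group. The difference was 3.86 on the log2 scale, a 14.5-fold higher level (SE 0.29, edgeR adjusted p = 5.57e-05). After UUO the level was 1.07 to 2.83 CPM in 4 wild-type and 12.2 to 19.7 CPM in 4 SMOC2-labelled libraries, a log2 difference of 3.17 (95% interval 2.61 to 3.74, edgeR adjusted p = 8.49e-05).

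The 411 bases of the Gm10039 transcript match Atp5g1, which encodes the membrane-embedded c subunit of mitochondrial ATP synthase, with 1 mismatch (99.757% identity by blastn against all GENCODE M21 transcripts). Because counts of such near-identical copies can be divided between them by the authors' counting, the place of that mismatch is shown in 60 aligned bases, 5′ to 3′, with the differing base in capitals. The window covers chr11:100361719-100361778 on the minus strand of mm10 (bases 349 to 408 of the Gm10039 transcript) and, in the coding part of the Atp5g1-201 transcript, bases 401 to 460. Counted from the 5′ end of the Gm10039 transcript, the difference of Atp5g1 to Gm10039 is G385A.
Gm10039: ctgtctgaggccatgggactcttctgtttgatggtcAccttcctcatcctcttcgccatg
Atp5g1: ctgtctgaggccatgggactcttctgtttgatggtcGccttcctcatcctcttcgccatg

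Atp5g1 was at 208, 244 and 224 CPM in the wild-type libraries and 167, 188 and 226 CPM in the SMOC2-labelled ones (log2 -0.22, edgeR adjusted p = 0.569). Gm10039 and Atp5g1 together summed to 213, 249 and 229 CPM in wild type and to 247, 276 and 276 CPM under the SMOC2 label. Of that sum, Gm10039 held 2.02 to 2.35% in the wild-type libraries and 17.9 to 32.3% in the SMOC2-labelled ones. The counts of the pair thus differed between labels far more in how they were divided than in their total. Whether the division reflects transcription of the copy or the assignment of Atp5g1 reads was not tested.

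Gm5909 (ENSMUSG00000082491), a processed pseudogene at chr8:80110806-80112086 on the minus strand, was at 0.0882, 0.112 and 0.117 CPM in wild type and at 2.19, 1.61 and 2.03 CPM in SMOC2-labelled libraries 1, 3 and 4. The groups did not overlap, and the wild-type values rest on few counts. It rose 17.6-fold (log2 4.14, SE 0.51, edgeR adjusted p = 0.00551). Without wild-type library 1 the adjusted p was 0.0562. Its closest transcript is that of Zc3h15, which encodes a zinc finger protein, with 97.8% identity over 1282 bases and 26 mismatches. Zc3h15 was at 64.6, 70.4 and 66.8 CPM in wild type and 63.6, 66.4 and 67.7 CPM under the SMOC2 label, and Gm5909 held 0.136 to 0.175% and 2.37 to 3.33% of the pair. A stretch of 60 aligned bases with 4 of the mismatches, in capitals, shows how the copy and the coding part of Zc3h15-201 (bases 1083 to 1142) can be told apart; on mm10 it lies at chr8:80111163-80111222, minus strand.
Gm5909: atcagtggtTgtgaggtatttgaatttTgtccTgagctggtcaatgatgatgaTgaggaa
Zc3h15: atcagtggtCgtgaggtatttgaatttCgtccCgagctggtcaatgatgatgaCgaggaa

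Spr-ps1 (ENSMUSG00000068303) is a transcribed pseudogene at chr6:85152621-85156223, plus strand, related to Spr, the sepiapterin reductase gene of tetrahydrobiopterin synthesis. It was at 3.09, 3.13 and 2.57 CPM in wild-type and 14, 10.5 and 13.6 CPM in SMOC2-labelled libraries, with no overlap. The rise was 4.34-fold (log2 2.12, SE 0.23, edgeR adjusted p = 0.00184). Spr was at 118, 132 and 109 CPM against 123, 135 and 136 CPM (log2 0.13, edgeR adjusted p = 0.600), and the copy held 2.31 to 2.54% of the pair in wild type and 7.25 to 10.3% under the SMOC2 label. The best-scoring alignment of the copy with Spr covered 603 bases at 90.2% identity.

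Gm11814 (ENSMUSG00000084215), a processed pseudogene at chr4:10438815-10439743 on the minus strand, was the gene that fell. It was at 3.61, 4.25 and 4.48 CPM in wild-type libraries and at 0.125, 0 and 0.0521 CPM in SMOC2-labelled libraries 1, 3 and 4. That is 273 counts over the wild-type libraries and 3 over the SMOC2-labelled ones, a 73.1-fold ratio with an exact 95% counting interval of 24.7 to 357, which covers counting error only (edgeR adjusted p = 0.00114). Its closest protein-coding transcript is Ldha of lactate dehydrogenase, 92.2% identical over 638 bases. Ldha was at 442 to 515 CPM in wild type and 483 to 513 CPM under the SMOC2 label, so Gm11814 held 0.812 to 0.862% of the pair in wild type and at most 0.0259% under the SMOC2 label.

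Catspere2 (ENSMUSG00000091476), at chr1:177983423-178172704 on the plus strand, encodes a subunit of CatSper, the calcium channel of the sperm tail, and was the protein-coding gene that changed. The gene overlaps Gm25312 and Gm37313 on the opposite strand, and the strand setting of the counting is not known. The closest protein-coding transcript of another gene is that of Desi2, 97.2% identical over 288 aligned bases of the transcript Catspere2-202. Catspere2 was at 3.22, 2.68 and 2.65 CPM in wild type and at 26.3, 15.6 and 28 CPM in SMOC2-labelled libraries 1, 3 and 4. It rose 8.16-fold (log2 3.03, SE 0.44, edgeR adjusted p = 0.0315). This call was the least firm of the 5: the adjusted p was 0.142 without SMOC2-labelled library 4 and 0.120, 0.0764 and 0.135 without wild-type library 1, 2 or 3. The neighbouring Catspere1 (ENSMUSG00000102483), an unprocessed pseudogene at chr1:177808550-177962233 that is 90.2% identical to Catspere2 over 1814 bases, was named after its values were seen. Catspere1 had 0 counts in all 3 wild-type libraries and 79, 50 and 95 counts in SMOC2-labelled libraries 1, 3 and 4. Its mean of 4.22 CPM under the SMOC2 label was at least 93.2-fold higher than a floor of 3 counts over the wild-type group (edgeR adjusted p = 0.162).

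The same 5 genes were examined in the 8 UUO libraries, whose values do not enter the group means of normal kidney, though they take part in the filter, the scaling and the estimate of the spread. After UUO 149 genes differed between labels (0.831%), and 4 of the 5 were among them in the same direction. Gm11814 was at 2.59 to 6.08 CPM in wild type and at 0 to 0.122 CPM under the SMOC2 label after UUO. Spr-ps1 was at 0.769 to 1.4 CPM against 2.69 to 4.38 CPM, a log2 difference of 1.67 (edgeR adjusted p = 0.00332). Gm5909 was at 0.0718 to 0.256 CPM against 0.813 to 1.96 CPM, a log2 difference of 3.22 (edgeR adjusted p = 0.00332). In these genes and Gm10039 all 4 SMOC2-labelled UUO libraries lay on one side of all 4 wild-type ones. Catspere2 overlapped after UUO, with 2.26 to 6.22 CPM against 3.25 to 8.76 CPM (log2 0.47, edgeR adjusted p = 0.583). The difference of that difference, 2.55 on the log2 scale, had an adjusted p of 0.483 in edgeR's interaction test. No gene passed the interaction test (0 of 17926, 0.00%), where 1154 genes had an unadjusted p under 0.05 (6.44%); DESeq2 called 25 and limma-voom 0.

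**Figure D2:**
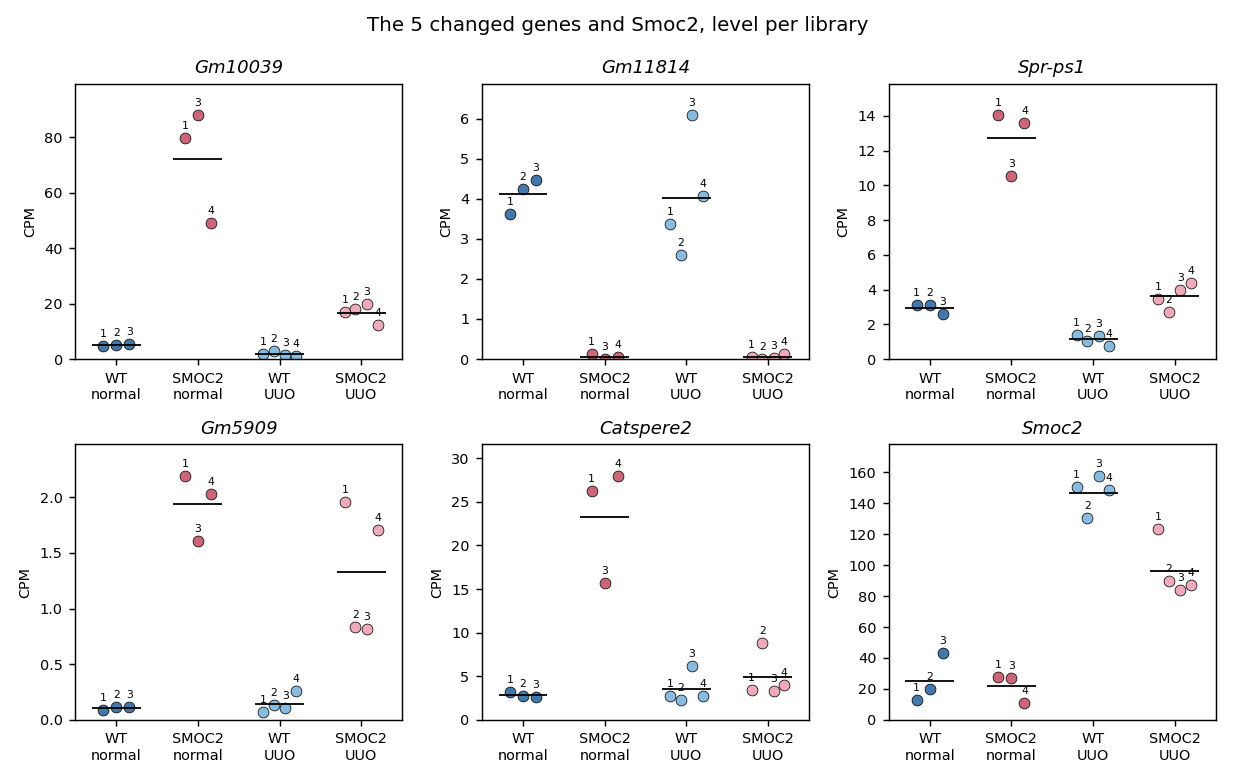
Level in CPM (y axis) of the 5 changed genes and Smoc2 in each of the 14 libraries, grouped by label and state (x axis); each point is a library with its number, and the line is the group mean. Gm10039, Spr-ps1 and Gm5909 are higher and Gm11814 is near 0 in the SMOC2-labelled libraries of both states, whereas Smoc2 overlaps in normal kidney.

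In other pairs of near-identical genes at least 1 gene did not follow the label in every library. Of these, 3 pairs are given here because of that, chosen after their values were seen. BC002163 (ENSMUSG00000081824) is a processed pseudogene of Ndufs5, a subunit of respiratory complex I, that differs from it at 2 of 319 bases. It was at 0.926, 1.01 and 0.545 CPM in the wild-type libraries and at 1.06, 22.1 and 20.3 CPM in SMOC2-labelled libraries 1, 3 and 4. Ndufs5 was at 15.3, 22.2 and 18.2 CPM in wild type and at 20.8, 10.8 and 9.89 CPM in the same SMOC2-labelled libraries. SMOC2-labelled library 1 was therefore like the wild-type libraries in both genes, with 4.86% of the pair on the copy, while libraries 3 and 4 had 67.3 and 67.2% on it. The edgeR adjusted p of BC002163 was 0.108, and 2.41e-04 without SMOC2-labelled library 1. Without each of the other normal libraries it was above the threshold, up to 0.308, and in the 6-library fit 0.389. With all libraries BC002163 was called by DESeq2 (adjusted p = 6.38e-04) and by edgeR with no filter on low counts (adjusted p = 0.0257). After UUO the copy held 2.32 to 6.15% in all 8 libraries. Both differing bases fall in 60 coding bases of Ndufs5-201 (bases 155 to 214), aligned here with chr16:42955693-42955752, plus strand; counted from the 5′ end of the BC002163 transcript the differences from Ndufs5 are T81C and A105G.
BC002163: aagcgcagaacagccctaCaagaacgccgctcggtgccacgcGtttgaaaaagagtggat
Ndufs5: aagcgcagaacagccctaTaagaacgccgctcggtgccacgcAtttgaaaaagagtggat

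Got2-ps1, a processed pseudogene of the mitochondrial aspartate aminotransferase gene Got2 with 99.1% identity over 1293 bases, also split the SMOC2-labelled libraries. It was at 0.125 CPM in SMOC2-labelled library 1 and at 4.11 and 6.46 CPM in libraries 3 and 4. The 3 wild-type libraries held 1 count in all (edgeR adjusted p = 0.170), and DESeq2 called the gene (adjusted p = 0.0133). After UUO Got2-ps1 was at 4.61, 2.06, 0.0707 and 3.29 CPM in SMOC2-labelled libraries 1 to 4. Thus 1 library of that group too was near the wild-type level of 0 to 0.0354 CPM. The UUO groups did not overlap, and the gene passed the test there (log2 7.46, edgeR adjusted p = 0.0398). Nat8f7 and Nat8f3, N-acetyltransferase genes that are 99.4% identical over 1822 bases, were divided differently again. Nat8f7 was at 2.12, 1.06 and 2.03 CPM in wild type and 7.39, 8.27 and 8.38 CPM under the SMOC2 label (log2 2.19, edgeR adjusted p = 0.0568). Nat8f3 was at 7.98, 4.97 and 6.70 CPM in wild type but at 0.250, 5.11 and 0.573 CPM in SMOC2-labelled libraries 1, 3 and 4. Library 3 alone kept a wild-type-like level of Nat8f3. Nat8f7 did not overlap in either state. After UUO it was at 0.106 to 0.370 CPM in wild type and 0.622 to 1.17 CPM under the SMOC2 label (log2 2.02, edgeR adjusted p = 0.0331).

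**Figure D3:**
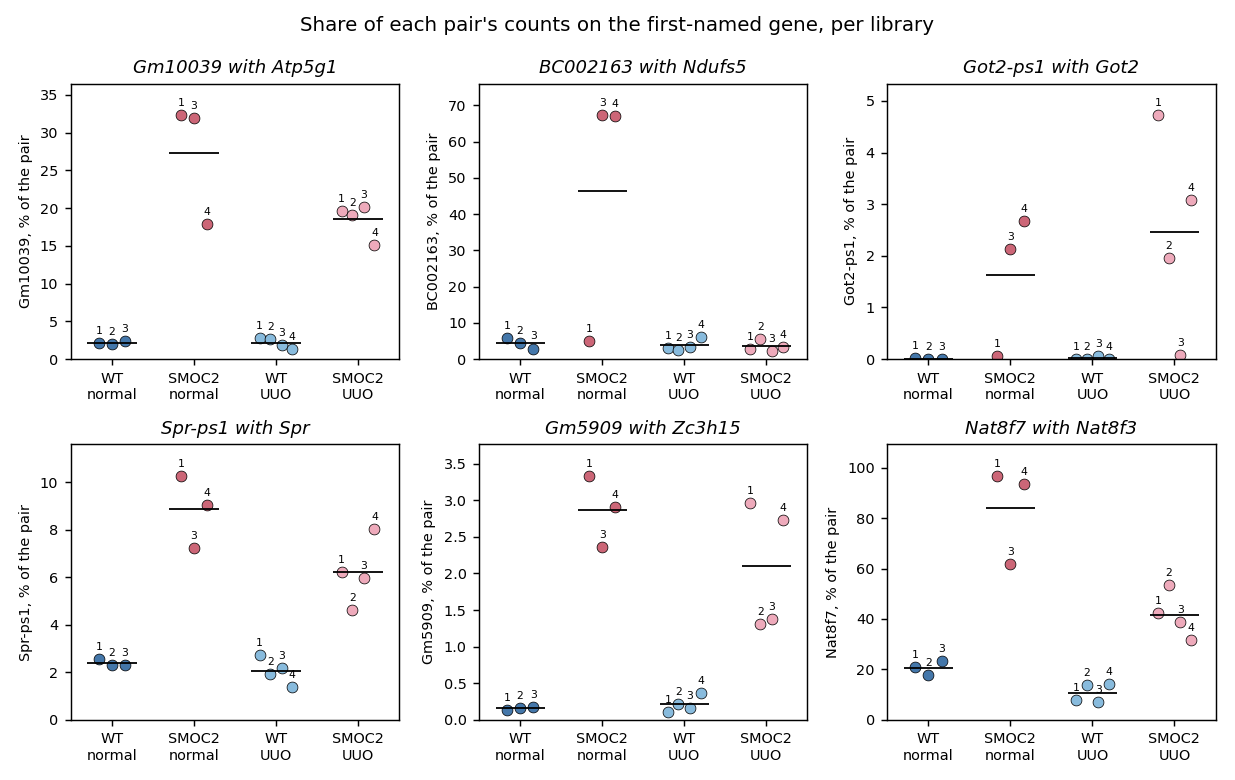
Percentage of the counts of each gene pair that falls on the first-named gene (y axis) in each library, by label and state (x axis); points carry the library number and lines are group means. Gm10039 holds 17.9 to 32.3% of its pair in SMOC2-labelled normal libraries against 2.02 to 2.35% in wild type, and BC002163 is at 67.3 and 67.2% in libraries 3 and 4 but 4.86% in library 1.

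Another 10 genes had an adjusted p between 0.05 and 0.1 by edgeR, and all 10 were called by DESeq2, which called 172 genes in all (0.96%), 108 higher and 64 lower. They are named because of their p, after their values were seen. In edgeR's fit to the 6 normal libraries Gstk1 passed (adjusted p = 0.0290) and Zfp991 was not tested. The others did not pass there, with adjusted p of 0.0678 to 0.356. For Gm1840, Prps2 and Ube2c DESeq2 was the only 1 of 14 alternatives that called the gene. Sik1, the salt-inducible kinase that acts on CREB co-activators, was at 244, 336 and 359 CPM in wild type and 639, 534 and 592 CPM under the SMOC2 label (log2 0.91, SE 0.14, edgeR adjusted p = 0.0526). Its groups did not overlap, and after UUO they did not overlap either, at 134 to 173 CPM against 196 to 226 CPM (log2 0.34, edgeR adjusted p = 0.203). Slc16a1, the monocarboxylate transporter that carries lactate and pyruvate, was at 32.6, 60.6 and 45.2 CPM against 23, 21.5 and 21.8 CPM (log2 -1.06, edgeR adjusted p = 0.0568); without wild-type library 1 the adjusted p was 0.00192, without SMOC2-labelled library 4 it was 0.283, and in the 6-library fit 0.261. After UUO Slc16a1 overlapped, at 33.5 to 41.2 CPM in wild type and 30.3 to 37.1 CPM under the SMOC2 label.

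Heph, which encodes the copper ferroxidase hephaestin of iron export, was at 26.2, 22.7 and 24 CPM against 17, 14.6 and 14.3 CPM (log2 -0.67, edgeR adjusted p = 0.0754). After UUO Heph was lower under the SMOC2 label by the test, at 30.2 to 37.6 CPM against 20.4 to 25.4 CPM (log2 -0.58, edgeR adjusted p = 0.0183). Heph overlaps Hsf3 on the opposite strand, and the strand setting of the counting is not known. Gstk1, a glutathione transferase of mitochondria and peroxisomes, was at 85.9, 92.6 and 83.9 CPM against 157, 149 and 180 CPM (log2 0.89, edgeR adjusted p = 0.0921). After UUO Gstk1 overlapped, at 16.4 to 21.8 CPM against 15.7 to 27.1 CPM. Zfp991, of the zinc finger family, was low in normal kidney, at 0.0779 to 0.220 CPM against 0.438 to 0.943 CPM, and reached 2.54 to 3 CPM in SMOC2-labelled UUO libraries against 0.283 to 0.467 CPM in wild type (log2 2.77 after UUO, edgeR adjusted p = 5.73e-04). The remaining genes of the 10 are Nat8f7, 1700067K01Rik, the pseudogene Gm1840, Prps2 of nucleotide synthesis and Ube2c, the ubiquitin-conjugating enzyme of mitotic exit. Some of these overlap another gene on the opposite strand, Zfp991 C230088H06Rik, Prps2 Gm15239 and Ube2c Tnnc2. Ube2c was at 2.07 to 3.24 CPM against 4.94 to 7.45 CPM, and Prps2 at 104 to 117 CPM against 72.7 to 81.8 CPM.

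A fit to the 6 normal libraries alone called 8 of 15810 genes (0.0506%): the same 5, and Catspere1, Gstk1 and Prlr. Prlr, the prolactin receptor, was at 320, 469 and 467 CPM in wild type and at 123, 110 and 87.3 CPM under the SMOC2 label. The difference was -1.97 on the log2 scale, with an adjusted p of 0.0151 in the 6-library fit and 0.211 in the 14-library fit of edgeR. Its level after UUO was lower and more scattered, at 17.8 to 108 CPM in wild type and 10.9 to 26.5 CPM under the SMOC2 label, and those groups overlapped.

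Tubular injury genes as a list did not separate the labels: 0 of 22 members passed, the median difference was -0.14 against -0.00369 over all genes tested, and 10 members were positive and 12 negative. Havcr1, which encodes KIM-1, a protein of injured proximal tubule, stood apart from the list. It was at 145, 11.6 and 4.13 CPM in wild-type libraries 1, 2 and 3 and at 308, 340 and 264 CPM in SMOC2-labelled libraries 1, 3 and 4. The groups did not overlap, but the wild-type libraries differed widely among themselves, and wild-type library 1 carried most of that spread. The difference was 2.50 on the log2 scale (95% interval 0.71 to 4.29, edgeR adjusted p = 0.292). Without wild-type library 1 it was 5.29 with an adjusted p of 2.25e-04, and without wild-type library 3 it was 1.95 with an adjusted p of 0.474. Havcr1 passed the threshold in 1 of 14 alternatives, with adjusted p up to 0.529. After UUO Havcr1 was at 251 to 370 CPM in wild type and 525 to 868 CPM under the SMOC2 label, again without overlap (log2 1.25, edgeR adjusted p = 0.420). The SMOC2-labelled normal libraries thus held about as much Havcr1 as obstructed wild-type kidney. Spp1, which encodes osteopontin, was at 1781, 2172 and 2058 CPM in wild type and lower, at 1612, 1459 and 1619 CPM, under the SMOC2 label (log2 -0.36, edgeR adjusted p = 0.429), and the keratin gene Krt18 overlapped. Tnfrsf12a, the TWEAK receptor, overlapped too, at 12.2 to 20.8 CPM against 17.3 to 29.4 CPM.

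**Figure D4:**
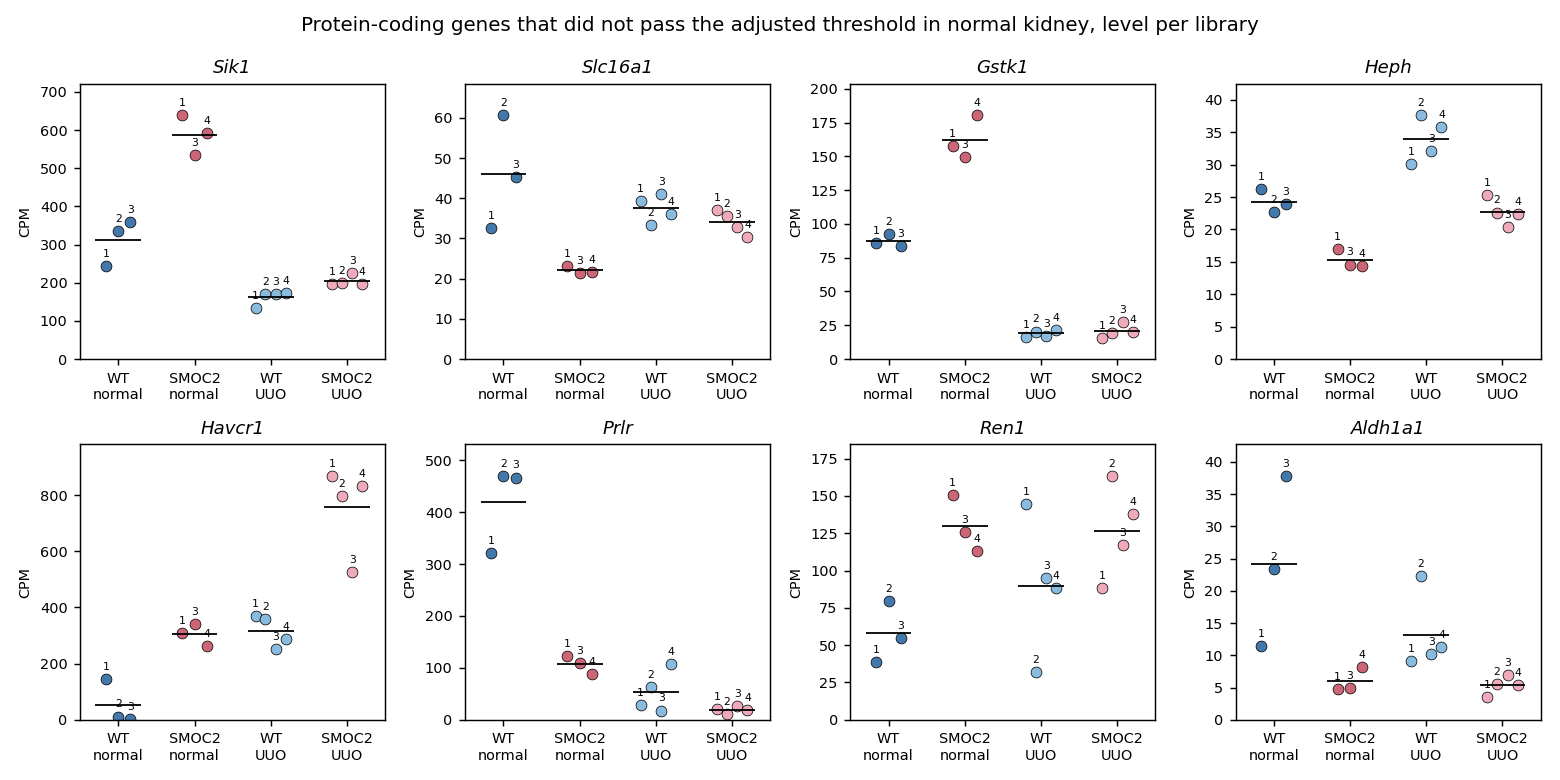
Level in CPM (y axis) of 8 protein-coding genes that did not pass the adjusted threshold in normal kidney, per library, by label and state (x axis); points carry the library number and lines are group means. For Havcr1 the wild-type normal libraries spread from 4.13 to 145 CPM while the SMOC2-labelled ones sit at 264 to 340 CPM; Prlr and Aldh1a1 are lower and Sik1 and Gstk1 higher in all 3 SMOC2-labelled normal libraries.

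Of 10 renin-angiotensin genes 0 passed, with a median of 0.00194. Ren1, the renin gene of juxtaglomerular cells, was at 38.9, 79.9 and 55.0 CPM in wild type and 151, 126 and 113 CPM under the SMOC2 label. The groups did not overlap, and the difference was 1.17 on the log2 scale (95% interval 0.30 to 2.03, edgeR adjusted p = 0.300). Some mouse strains carry a second, near-identical renin gene, so the Ren1 count is uncertain as a measure of one gene. After UUO Ren1 overlapped, at 32.2 to 144 CPM in wild type and 88.5 to 163 CPM under the SMOC2 label.

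No extracellular matrix gene passed the test in normal kidney. Of 43 members, 0 passed, 7 had an unadjusted p under 0.05, all lower, and 36 had a negative difference; the median was -0.35. Over all genes tested 6.73% were lower at that p, and 9089 of 17926 had a negative difference. In 3 members all SMOC2-labelled libraries lay below all wild-type ones and in 0 above, where 8.01% of all genes lay below. Col8a1, a short-chain collagen, was at 10.5, 9.56 and 12.1 CPM against 6.76, 4.83 and 6.82 CPM (log2 -0.81, edgeR adjusted p = 0.292). Mfap4, of the microfibrils, was at 2.34, 2.91 and 4.28 CPM against 2, 1.83 and 1.41 CPM, and Fbln1, of basement membranes and elastic fibres, overlapped at 9.13 to 19.4 CPM against 7.03 to 10.8 CPM. Wild-type library 3 was the highest library for Fbln1 and Mfap4, and also for Smoc2 and for the fibroblast gene Pdgfra, at 72.0 CPM there against 20.2 to 39.1 CPM in the other 5. The summed level of 17 fibroblast markers overlapped, at 453 to 641 CPM in wild type and 468 to 638 CPM under the SMOC2 label, with no member at 0 in all 6 libraries, and their part in the matrix values was not tested. In whole tissue, fewer cells of a type and less RNA per cell cannot be told apart.

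Among 9 tested members of the SPARC, SMOC and follistatin-domain list 0 passed, with a median of -0.15. Sparc, the founding matricellular member, was at 163, 308 and 331 CPM against 201, 243 and 144 CPM. Smoc1, the paralog of Smoc2, was at 0.112 to 0.661 CPM against 0.312 to 0.444 CPM, Sparcl1 at 44.9 to 83.0 CPM against 54.2 to 82.5 CPM and Spock2 at 1.67 to 1.76 CPM against 1.39 to 2.82 CPM. Spock3, a secreted proteoglycan gene at the edge of detection, was the member without overlap, at 0.970, 0.559 and 0.428 CPM against 0.188, 0.166 and 0.312 CPM. Fst, the activin antagonist follistatin, was at 16.7 to 21.5 CPM against 15.6 to 25.5 CPM, Fstl1 at 45.3 to 72.8 CPM against 39.2 to 61.2 CPM and Fstl3 at 4.19 to 6.27 CPM against 3.94 to 5.82 CPM. None of 17 fibroblast and myofibroblast genes and none of 25 TGF-beta and BMP signalling genes passed either, with medians of -0.00551 and -0.00813; the receptor gene Tgfbr1 was at 71.5 to 81.3 CPM against 49.6 to 68.6 CPM without overlap.

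Genes that start within 2 Mb of Smoc2 on chromosome 17 were looked at as its neighbours. Of 35 tested, 0 passed, 3 were higher and 2 lower at an unadjusted p under 0.05, and the median was 0.08; over all genes tested 12.8% had such a p, so the count is near the background. Phf10, a chromatin remodelling subunit, was at 38.1 to 42.8 CPM against 34.1 to 36.7 CPM, and Slc22a2, the organic cation transporter of proximal tubule, at 257 to 325 CPM against 352 to 434 CPM. Dact2, a Wnt and Nodal antagonist, overlapped in normal kidney at 28.2 to 36.6 CPM against 34.2 to 47.9 CPM, and was higher under the SMOC2 label after UUO, at 22.9 to 29.6 CPM against 39.6 to 45.2 CPM (edgeR adjusted p = 0.0330). Tcte2 was at 2.84 to 5.31 CPM against 5.16 to 6.72 CPM, Chd1, a chromatin remodeller, at 76.1 to 80.9 CPM against 64.0 to 74.4 CPM, and Thbs2, a matricellular thrombospondin, at 5.60 to 8.5 CPM against 6.99 to 7.26 CPM.

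Of 21 circadian clock genes 0 passed the test; Clock, Arntl and Npas2 were lower in value and Per2, Dbp and Tef higher. The clock runs on the activators CLOCK and BMAL1 (Arntl), which drive the repressors of the Per and Cry families and output factors such as DBP and TEF. The list median was 0.31, with 14 members positive and 7 negative, and 3 were higher and 3 lower at an unadjusted p under 0.05. Over all genes tested 8808 were positive and 9089 negative, and 6.10% were higher and 6.73% lower at that p. Clock was at 82.6, 84.6 and 93.4 CPM in wild type and 66.7, 60.9 and 59.1 CPM under the SMOC2 label (log2 -0.48, edgeR adjusted p = 0.124). Arntl was at 13.0, 25.7 and 23.5 CPM against 11, 10.9 and 8.23 CPM (log2 -1.04, edgeR adjusted p = 0.219); neither group overlapped, and DESeq2 called both genes lower. Npas2, the paralog of Clock, was at 6.30 to 18.6 CPM against 4.95 to 8.83 CPM. Per2 was at 41.0, 18.4 and 31.9 CPM against 43.5, 52.6 and 59.0 CPM (log2 0.76, edgeR adjusted p = 0.308), and Dbp at 53.1, 8.66 and 24.9 CPM against 55.0, 49.7 and 92.2 CPM. Tef was at 189 to 336 CPM against 351 to 457 CPM. Wild-type library 2 had the lowest Per2, Dbp, Tef, Per3 and Nr1d1 and the highest Arntl and Npas2 of the 6, so the wild-type libraries also differed along this axis among themselves. Per1, another repressor, was at 61.8, 41.4 and 58.7 CPM in wild type and 131.6, 62.3 and 65.7 CPM under the SMOC2 label, without overlap, but was lower in value after UUO (log2 0.68 and -0.92; edgeR's interaction test, adjusted p = 0.615). Cry1 also had opposite signs in the 2 states, at -0.0512 and 0.26. Clock, Arntl, Per2 and Dbp had the same sign after UUO as before, without overlap. Clock was at 63.6 to 73.1 CPM against 45.8 to 59.6 CPM and Arntl at 16.1 to 25.7 CPM against 8.20 to 14.8 CPM. Per2 was at 9.97 to 20.1 CPM against 24 to 29.9 CPM and Dbp at 2.77 to 10.2 CPM against 18.7 to 33.3 CPM. These genes did not pass the test there (edgeR adjusted p = 0.0867, 0.0875, 0.0846 and 0.0722). Per3, Nr1d1 and Tef were also higher without overlap after UUO. Npas2, Nr1d2, Hlf, Ciart, Nfil3, Cry1 and Per1 overlapped there. How many of all genes did not overlap after UUO was not counted.

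**Figure D5:**
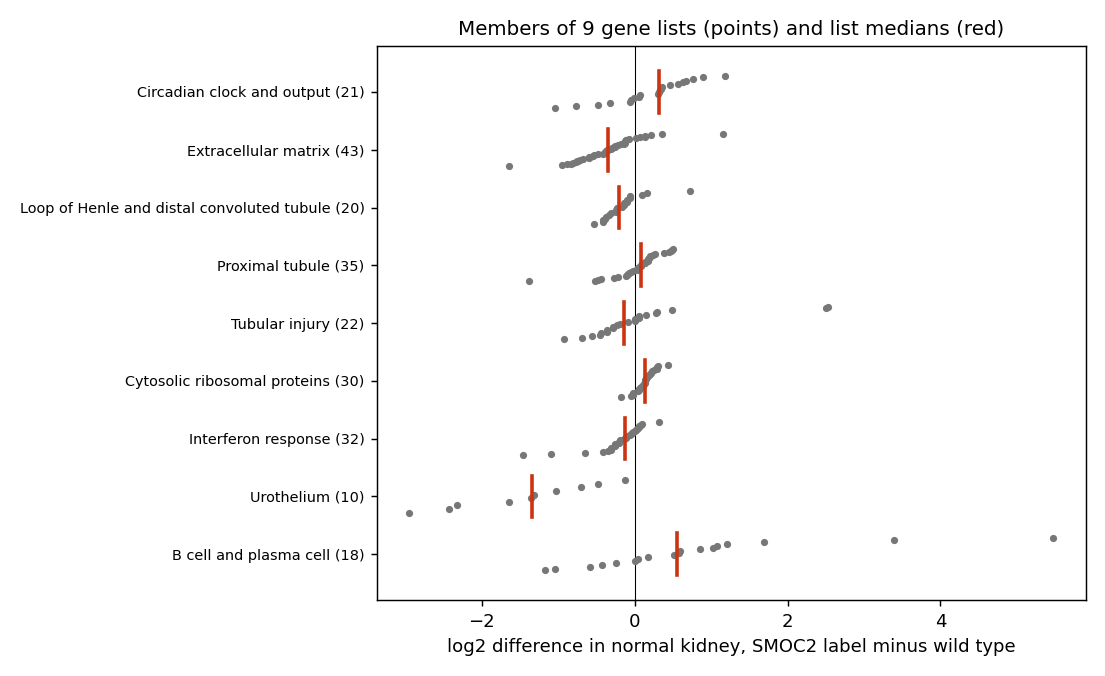
Log2 difference of the SMOC2 label from wild type in normal kidney (x axis) for each tested member of 9 gene lists (points, number of members in brackets), with the list median in red. The medians run from -1.34 for urothelium and -0.35 for extracellular matrix to 0.31 for the clock and 0.55 for B and plasma cells, and no member of these lists passed the threshold.

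No nephron segment list had a member that passed. Values were lower under the SMOC2 label in 17 of 20 loop and distal tubule genes and in 12 of 19 collecting duct genes. All the markers that define proximal tubule, loop, collecting duct, podocyte and endothelium were detected, as the tissue label requires. Of 35 proximal tubule genes 0 passed, with a median of 0.08, and their summed level overlapped at 91078 to 109573 CPM in wild type and 101428 to 117007 CPM under the SMOC2 label. Of the 35 genes, 23 were positive and 12 negative. In 5 all SMOC2-labelled libraries lay above the wild-type ones and in 1 below, against 8.84% and 8.01% of all genes. Slc7a13, a cystine and aspartate transporter of the last proximal segment, was lower in value, at 16.3, 7.83 and 4.48 CPM against 3.94, 3.55 and 3.44 CPM (log2 -1.39, edgeR adjusted p = 0.403). Without wild-type library 1 its difference was -0.75. Of 20 loop and distal tubule genes 0 passed, and 17 were negative with a median of -0.20, where 9089 of all 17926 genes were negative. In 7 of the 20 all SMOC2-labelled libraries lay below the wild-type ones, a larger share than the 8.01% of all genes. The summed level of the 20 genes did not overlap, at 16998 to 18201 CPM against 12635 to 15653 CPM. Bsnd, the barttin subunit of chloride channels, was at 104, 116 and 119 CPM against 87.6, 80.9 and 85.1 CPM, and the magnesium channel gene Trpm6 at 43.2, 45.1 and 42.8 CPM against 33.9, 34.9 and 36.9 CPM. Cldn16, the tight junction gene of magnesium reabsorption, overlapped at 15.2 to 23.7 CPM against 11.4 to 16 CPM. Of 19 collecting duct genes 12 were negative, with a median of -0.09, and 0 had an unadjusted p under 0.05. Their summed level overlapped, at 2255 to 2588 CPM in wild type and 2007 to 2385 CPM under the SMOC2 label. In 4 of the 19 genes all SMOC2-labelled libraries lay below the wild-type ones and in 0 above. Over all genes tested 8.01% lay below and 8.84% above. A list for the medulla was also lower in sum, at 8852 to 9863 CPM against 7932 to 8761 CPM, but its median was -0.05 and in 0 of 15 members did the groups not overlap; this list shares members with the loop list, Umod among them, and how much inner kidney each sample held was not tested. The podocyte list had a median of 0.10 with overlapping sums; Nphs1, which encodes nephrin of the slit diaphragm, was at 25.7 to 42.6 CPM against 43.8 to 49.3 CPM, and Cd2ap at 150 to 171 CPM against 123 to 143 CPM.

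Metabolic lists had medians near 0. The median was 0.06 over 30 genes of fatty acid oxidation, 0.08 over 30 nuclear genes of the respiratory chain, 0.07 over 23 of lipid synthesis and 0.05 over 28 of glucose and amino acid metabolism, and 0 members passed in each. Uqcrc1, a core protein of respiratory complex III, was at 490 to 573 CPM against 620 to 706 CPM, and Acaa2, the last enzyme of mitochondrial fatty acid oxidation, at 286 to 309 CPM against 211 to 251 CPM, both without overlap. Ribosomal protein genes had a median of 0.14 with 25 of 30 positive and 0 passing, where 8808 of all 17926 genes were positive. Rplp2 was at 166 to 222 CPM against 221 to 267 CPM. Among 25 cytochrome P450 and conjugation genes 0 passed by edgeR and DESeq2 called Gstk1 and Gstp1. Gstp1, a cytosolic glutathione transferase with a near-identical neighbouring copy, was at 45.6, 51.9 and 47.8 CPM against 70.1, 75.1 and 65.1 CPM (log2 0.53, edgeR adjusted p = 0.170). Cyp2a5 was at 28.8 to 68.8 CPM against 90.3 to 104 CPM, and Cyp24a1, which inactivates vitamin D, at 20.8 to 55.8 CPM against 9.83 to 36.9 CPM. Aldh1a1 and Akr1b8, an aldehyde dehydrogenase and an aldo-keto reductase chosen after their values were seen, were both lower without overlap and were called by DESeq2: Aldh1a1 was at 11.4, 23.3 and 37.8 CPM against 4.76, 4.99 and 8.23 CPM (edgeR adjusted p = 0.162) and Akr1b8 at 4.32, 4.86 and 4.36 CPM against 1.57, 1.33 and 0.729 CPM (edgeR adjusted p = 0.108). After UUO Aldh1a1 was at 9.05 to 22.3 CPM against 3.58 to 6.93 CPM.

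No immune gene list had a member that passed. The B cell and plasma cell list lay higher in value, with a median of 0.55 and 13 of 18 members positive, where 8808 of all 17926 genes were. In 4 of these 18 all SMOC2-labelled libraries lay above the wild-type ones, where 8.84% of all genes did. The sums of that list overlapped, at 52.7 to 148 CPM in wild type and 68.2 to 250 CPM under the SMOC2 label. Of 32 interferon-response genes 0 passed and 23 were negative, with a median of -0.13, where 9089 of all 17926 genes were negative. Of 22 macrophage genes 0 passed, with a median of -0.16 and overlapping sums of 277 to 321 CPM and 290 to 327 CPM. Adgre1, which encodes the macrophage protein F4/80, was at 3.61, 3.63 and 5.61 CPM against 3.38, 1.83 and 2.29 CPM, and Cd14 at 19.2 to 21.5 CPM against 12 to 17.2 CPM. C7, a component of the complement lytic pore, was at 3.22, 5.53 and 7.99 CPM against 2.13, 2.55 and 0.729 CPM (log2 -1.64, edgeR adjusted p = 0.211), and DESeq2 called it lower. Atf3, a stress-induced transcription factor, was at 0.935 to 1.19 CPM against 1.33 to 4.95 CPM (log2 1.39, edgeR adjusted p = 0.252). Without SMOC2-labelled library 4, its highest library, the difference was 0.70. Atf3 was the member of the immediate early and heat shock list that DESeq2 called, and Ier2 of that list was at 12.7 to 14.5 CPM against 17.7 to 22.7 CPM.

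Markers of tissues next to the kidney were also looked at. Urothelial markers were lower in value in 10 of 10 tested members, with a median of -1.34 and 0 passing, where 9089 of all 17926 genes were lower. Their sums overlapped slightly, at 201.8 to 249.2 CPM in wild type and 154.4 to 202.6 CPM under the SMOC2 label, with Krt13 at 0 in all 6 libraries. Psca, the urothelial member with the smallest p, was at 10.01, 0.838 and 16.5 CPM in wild type and 1.69, 0.999 and 2.81 CPM under the SMOC2 label, so wild-type library 2 was at the level of the SMOC2-labelled ones. The steroid genes Cyp11b1 and Cyp11b2 of the adrenal cortex were at 0 in all 6 libraries, as were 12 of 20 pancreas and liver genes. Both lists still had counts. Adrenal genes summed to 7.38 to 8.37 CPM in wild type and 7.65 to 9.20 CPM under the SMOC2 label. Pancreas and liver genes summed to 103 to 120 CPM against 97.9 to 175 CPM. Muscle markers did not overlap in sum, at 39.5 to 49.2 CPM against 50.2 to 56.4 CPM, with a median of -0.00926. Adipose markers overlapped in sum, at 61.3 to 90.2 CPM against 76.4 to 91.4 CPM, with a median of 0.98.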

How the data were processed

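Messenger RNA of whole mouse kidney was measured in 14 libraries. What the authors deposited for each library is a raw count per gene, not normalized. STAR 2.4.1d, featureCounts 1.4.4 and the mm10 build are listed in the submitters' processing notes. How strand and multiply matching reads were treated is not given in the sources used; counts of near-identical copies and of overlapping genes are therefore uncertain. Symbols came from GENCODE M21 (47310 of 47729 identifiers; the other 419 held 0.0288% of counts). In R 4.3.3, edgeR 4.0.16 filtered the counts (filterByExpr), scaled them (TMM), fitted a mean per group (4 groups, 14 libraries) and tested SMOC2_normal minus WT_normal, the same in UUO, and their interaction. The alternatives were upper-quartile or median-ratio scaling, a filter of 50 counts in 3 libraries or none, DESeq2 1.42.0, limma-voom (3.58.1), the 6 normal libraries alone, a replicate block and each normal library left out. With 3 against 3 libraries an exact permutation test cannot go below p = 0.1 and was not used. The labels do not say that libraries are separate animals, so p-values measure the spread between libraries, which may be technical. Transcripts were aligned with blastn 2.17.0. The pipeline was tested on simulated counts. The comparison, the 43 gene lists and the genes named (Smoc2, all changed genes, each list's 4 smallest p, SPARC-list members, genes near Smoc2) were chosen with earlier results of these data known; other names are said to be chosen after their values were seen, including the parent genes of copies and the further clock genes.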

Additional observations from a re-analysis of the deposited data

Results flagged for a closer look

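In the UUO groups of 4, a library is named where its gap to the nearest other library was above Dixon's 95% critical share of the group's range. For normally distributed values chance flags about 1 in 20 groups. Here 9 of 46 groups, over 23 genes, were flagged. A group with 0 in the other 3 libraries is always flagged, and some of the genes were chosen after their values were seen. The shares therefore cannot be compared. Smoc2 was at 124 CPM in SMOC2-labelled UUO library 1, above the 83.9 to 89.9 CPM of the other 3. Catspere2 was at 6.22 CPM in wild-type UUO library 3, above 2.26 to 2.73 CPM, and at 8.76 CPM in SMOC2-labelled UUO library 2, above 3.25 to 4.02 CPM. Catspere1 was at 1.03 CPM in the same wild-type UUO library 3 and at 0 in the other 3. BC002163 was at 0.641 CPM in wild-type UUO library 4, above 0.236 to 0.287 CPM. Got2-ps1 was at 0.0354 CPM, a single count, in wild-type UUO library 3 and at 0 in the other 3. Sik1 was at 134 CPM in wild-type UUO library 1, below 169 to 173 CPM, and at 226 CPM in SMOC2-labelled UUO library 3, above 196 to 198 CPM. Aldh1a1 was at 22.3 CPM in wild-type UUO library 2, above 9.05 to 11.2 CPM. Groups of 3 normal libraries are too small for this rule.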

How the results depend on the processing

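Gm10039, Gm11814 and Spr-ps1 were called in 14 of 14 alternatives, Gm5909 in 12 of 13 and Catspere2 in 9 of 14. The 4 higher and 1 lower genes became 9 and 3 with no filter, 108 and 64 with DESeq2, 8 higher with limma-voom, and 2 lower with the 6 normal libraries alone; the cause was not tested. The 4 genes shared with UUO became 56 with DESeq2, and the 0 interaction genes became 1 with no filter and 25 with DESeq2. Same-numbered libraries share only a number: their deviations correlated at -0.00644 and 0.00850 in normal kidney. With the replicate block 3 genes were higher and 2 lower, 4 of the 5 remained, Catspere2 had an adjusted p of 0.109, 1 gene passed the interaction test and Fstl3 was at 0.0264. Leaving out single libraries gave 3 to 12 higher genes, 1 to 9 lower, 4 to 8 shared with UUO and 0 to 2 with an interaction. The upper ends of those ranges came without SMOC2-labelled library 1; without wild-type library 2 there were 7 higher and 4 lower, and 2 were lower without SMOC2-labelled library 4 or wild-type library 1 or 3. Smoc2 ran from -0.55 to 0.43, with 0.11 and 0.43 reversed. Genes whose log2 difference crossed 0 when single libraries were left out, none past the threshold, were Smoc1 (-0.55 to 0.26), Cry1 (-0.36 to 0.16), Spock2 (-0.26 to 0.31), Cd8a (-0.18 to 3.19), Fstl3 (-0.20 to 0.0942), Fst (-0.13 to 0.24), Ldha (-0.0281 to 0.0794), Thbs2 (-0.0464 to 0.25), Zc3h15 (-0.0594 to 0.00191), Pdgfra (-0.71 to 0.11) and Hbb-bs (-2.02 to 0.14). With limma-voom Smoc1 was at 0.11 and Cry1 at 0.0566. Depth limits genes such as Gm11541 and Gm11839, whose values rest on few counts.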

Other observations

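A few genes were high in 1 normal library alone and are given as values. Ttr, which encodes the thyroxine and retinol carrier transthyretin, was at 71.1 CPM in SMOC2-labelled library 3 and at 0.615 to 1.59 CPM in the other 5. The T cell gene Cd8a was at 10.1 CPM in SMOC2-labelled library 1 and at 0.273 to 1.10 CPM in the other 5. The haemoglobin gene Hbb-bs was at 156 CPM and Alas2, of red cell haem synthesis, at 8.34 CPM in wild-type library 3, against 6.98 to 31.2 CPM and 0.469 to 2.07 CPM in the other 5. Fgb, of fibrinogen, was instead higher in 2 wild-type libraries, at 0.0882, 2.91 and 4.25 CPM in the wild-type libraries and at 0 to 0.156 CPM in the SMOC2-labelled ones. Besides Catspere1, 2 genes had 0 counts in 1 label and at least 10 counts in each library of the other. Gm11541 had 22, 20 and 18 counts in the SMOC2-labelled libraries, at least 25.2-fold above the floor of 3 counts over the wild-type group (edgeR adjusted p = 0.291). The processed pseudogene Gm11839 had 11, 14 and 12 counts in the wild-type libraries, at least 10.3-fold above the floor of the SMOC2-labelled group (edgeR adjusted p = 0.170). Both genes overlapped after UUO. Gm11541 was then at 0 to 0.875 CPM in wild type and 0 to 0.529 CPM under the SMOC2 label, and Gm11839 at 0.556 to 0.955 CPM against 0.0354 to 0.654 CPM.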
